A study of Caenorhabditis elegans with 2 samples.

Results

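The 80 homeobox genes described here were picked out by a rule on gene symbols. They are the nuclear protein-coding genes named ceh followed by a number, of which there are 63, and 17 further genes known by other names, such as lin-39, unc-86 and pal-1. They make up 80 of 19973 nuclear protein-coding genes of Caenorhabditis elegans. Homeobox genes known by other symbols, such as unc-62 and lim-4, are outside this choice. The question asked of them is where the chromatin protein PBRM-1 sits at these genes. The rule itself uses no measured value.

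The data come from chromatin immunoprecipitation and sequencing of whole young adults, 64.5 h old, of the strain RW12226. In these worms pbrm-1, on its own locus, carries an insertion made by CRISPR that adds TY1, EGFP and 3xFLAG tags, and an anti-GFP antibody was used. There was 1 group with 2 biological replicates, both of the tagged strain, synchronised as L1 larvae starved after bleaching. No contrast between conditions exists, and the data of the control experiment that the labels name were not used here. The series list, made from both replicates, held 3243 peaks. Replicate 1 alone had 1370 peaks and replicate 2 alone had 2173. The signal of a peak is the authors' own value. How it was scaled is not stated. Signals and ranks are therefore compared only within a list. Where values of both replicates are printed together, each is on the scale of its own list, and their sizes cannot be compared. Read depth is unknown from peak lists. In whole animals, strong binding in few cells and weak binding in many cannot be told apart.

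Homeobox genes encode transcription factors that contact DNA through a homeodomain, a small helical domain. In C. elegans, Hox genes pattern the body from head to tail, and many other classes (paired-like, LIM, POU, SIX-class, NK-like) fix the identity of single neuron types or muscles. PBRM-1 is the polybromo subunit of PBAF, a SWI/SNF complex that moves and evicts nucleosomes.

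Most homeobox genes had no PBRM-1 peak. A summit of the series list lay in a promoter window of 5 of the 80 genes (6.25%), against 9.87% of all protein-coding genes. A promoter window runs from 1000 bp upstream to 200 bp downstream of any annotated transcript 5' end. The genes were ceh-38, ceh-43, ceh-99, ceh-2 and ceh-83. A summit lay in the gene body of 4 homeobox genes (5.00%), against 5.28% of all genes. These were ceh-8, ceh-38, ceh-43 and ceh-60. In either place there was a summit at 7 homeobox genes (8.75%), against 12.6% of all genes, and 73 had none. A single gene moves such a share of the 80 by 1.25 percentage points, so the distances from the genome-wide shares amount to a few genes.

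Few homeobox genes had a summit in either replicate's own list as well. In the own list of replicate 1, 3 homeobox genes had a promoter summit (3.75%) against 4.63% of all genes. In that of replicate 2 there were also 3 (3.75%), against 7.63%. A promoter summit in both lists was at ceh-38 and ceh-43, 2 of the 4 homeobox genes with one in either list. Over all genes it was 827 of 1622. For gene bodies, replicate 1 gave 3 homeobox genes (3.75%) against 2.02% of all genes, and replicate 2 gave 4 (5.00%) against 3.14%. Of the 4 homeobox genes with a body summit in either list, 3 had one in both, against 317 of 715 over all genes. The homeobox share was thus below the genome-wide share for promoter windows in each of these 3 lists. For gene bodies it was above that share in both replicates' lists and just below it in the series list.

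**Figure D1:**
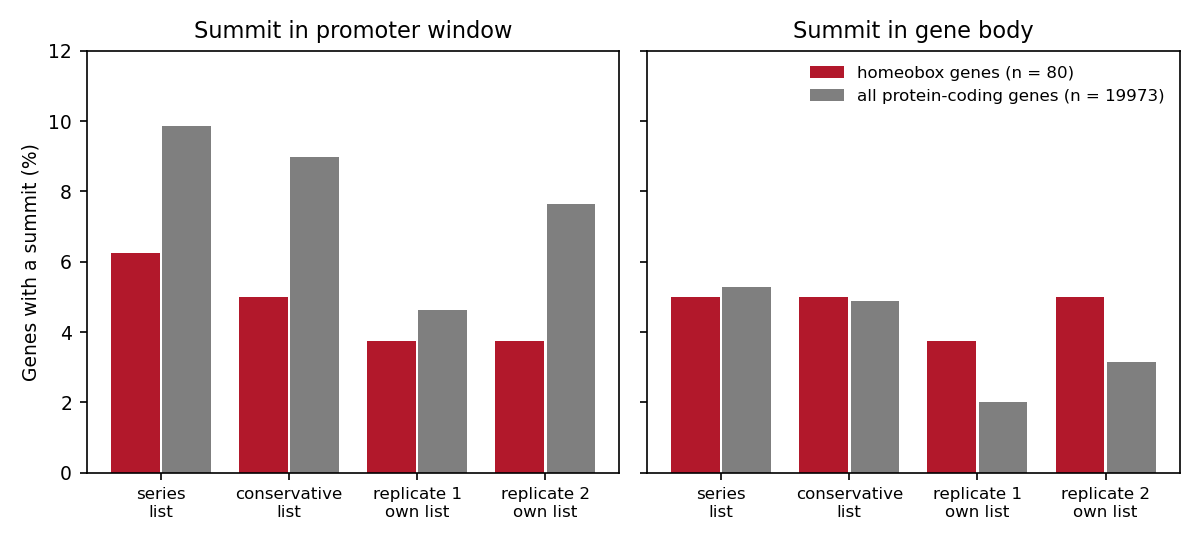
Percent of genes with a peak summit in a promoter window (left) or in the gene body (right), for 80 homeobox genes (red) and 19973 protein-coding genes (grey) in 4 peak lists. The promoter share of the homeobox genes is 6.25% against 9.87% in the series list and 3.75% against 7.63% in replicate 2.

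The strongest promoter peak of the family was at ceh-38, which encodes a CUT-class factor. The peak at chrII:6951459-6951778 (ce11) had a signal of 172 and ranked 508 of 3243 in the series list. In the replicates' own rankings its signal was 77.6 in replicate 1 and 95.5 in replicate 2, and it passed in both. ceh-38 (WBGene00000459) spans chrII:6951526-6955409 on the plus strand and has 11 distinct annotated 5' ends. The series summit fell on the 5' end of a transcript, in an exon annotated as 5' UTR. In replicates 1 and 2 the summit lay 1 and 20 bp from a 5' end. The series summit also lay in a promoter window of malt-1, a paracaspase gene that runs the other way, at 319 bp upstream of its 5' end. The 225 bases between both genes, chrII:6951301-6951525, are shown on the plus strand because the peak covers their ceh-38 end. None of the 5 motifs searched for, spelled out further on, occurs in them, so no letter is in capitals. The summit lies beyond this stretch, and the 300 bp around the summit hold 1 match, GATAA.

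ceh-38 and malt-1, shared upstream region: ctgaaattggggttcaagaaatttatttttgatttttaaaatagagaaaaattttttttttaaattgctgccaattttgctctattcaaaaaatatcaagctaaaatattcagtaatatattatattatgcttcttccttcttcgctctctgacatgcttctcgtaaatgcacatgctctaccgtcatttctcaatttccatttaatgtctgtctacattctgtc

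ceh-99 and ceh-83 had peaks close to their 5' ends, with no other protein-coding gene's window involved. ceh-99 (WBGene00044032, chrII:12519981-12524478, plus strand) had its summit 76 bp upstream of its single 5' end, in a peak at chrII:12519745-12520064. The series signal was 97.3, at rank 1505. Replicate 1 had 59.6, in its own list, and replicate 2 had 44.4, short of its threshold. The microRNA gene cel-mir-77 lies 538 bp from the summit. ceh-83 (WBGene00018446, chrII:1733716-1736533, minus strand) had its summit 26 bp upstream of a 5' end, in a peak at chrII:1736399-1736718. Its series signal of 71.9, at rank 2444, was the lowest of the 8 peaks at homeobox genes. It passed in neither replicate's own list, with 32.1 in replicate 1 and 35.8 in replicate 2. ceh-83 is the last of a row of 3 homeobox genes. Its summit was also the series summit nearest to its neighbours ceh-82 and ceh-81, at 4327 and 6156 bp from their 5' ends. The stretch of each peak that lies upstream of the gene is printed on the gene's strand, with matches to a searched motif in capitals. The ceh-99 stretch has none and the ceh-83 stretch has 1, GAGAGA. The letters come from the RefSeq copy of WBcel235, at chrII:12519745-12519980 for ceh-99 and chrII:1736534-1736718 for ceh-83.

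ceh-99 upstream: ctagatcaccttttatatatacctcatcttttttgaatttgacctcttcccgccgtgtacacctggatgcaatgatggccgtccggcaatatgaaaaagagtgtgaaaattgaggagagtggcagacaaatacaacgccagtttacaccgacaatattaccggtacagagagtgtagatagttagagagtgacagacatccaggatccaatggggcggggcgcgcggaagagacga

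ceh-83 upstream: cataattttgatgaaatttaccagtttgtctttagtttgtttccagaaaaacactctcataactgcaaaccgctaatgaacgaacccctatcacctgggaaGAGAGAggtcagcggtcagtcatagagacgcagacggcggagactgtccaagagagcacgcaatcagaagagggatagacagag

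ceh-43 was the only homeobox gene with a pair of peaks, and both series summits lay inside tRNA genes. ceh-43 encodes the Distal-less (Dlx) factor of the worm, known from the anterior epidermis and dopaminergic neurons. It spans chrIII:4446638-4449943 on the minus strand (WBGene00000463). The upstream peak, chrIII:4450198-4450517, had its summit 415 bp upstream of the 5' end and a series signal of 106. The inner peak, chrIII:4449396-4449715, had its summit in an intron, 387 bp downstream of the 5' end, and a signal of 108. For the upstream peak the signal was 47.7 in replicate 1 and 52.6 in replicate 2, both passing. For the inner peak it was 37.5 in replicate 1, which did not pass, and 77.0 in replicate 2, which did. The replicate 2 summit of the upstream peak lay 7 bp outside its tRNA gene. RefSeq names the product of both tRNA genes, WBGene00014267 and WBGene00014268, as tRNA-Arg. Each is 73 bp long, and they are identical at all 73 positions. That sequence occurs 6 times in the nuclear genome, counting both strands. Reads from identical copies cannot be assigned to 1 of them by sequence alone, so how the signal divides between these peaks is uncertain. The 181 bases around each summit are shown on the strand of ceh-43, with the tRNA gene in capitals. They are chrIII:4450268-4450448 and chrIII:4449466-4449646, and outside the capitals they differ.

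ceh-43 upstream peak: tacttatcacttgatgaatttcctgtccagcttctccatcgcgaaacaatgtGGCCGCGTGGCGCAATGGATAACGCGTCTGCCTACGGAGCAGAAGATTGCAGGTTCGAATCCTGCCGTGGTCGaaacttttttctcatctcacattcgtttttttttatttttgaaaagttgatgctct

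ceh-43 inner peak: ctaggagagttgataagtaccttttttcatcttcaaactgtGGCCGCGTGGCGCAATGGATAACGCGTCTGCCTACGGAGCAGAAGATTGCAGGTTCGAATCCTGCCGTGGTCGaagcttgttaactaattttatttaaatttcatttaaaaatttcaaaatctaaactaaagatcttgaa

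ceh-60 had a peak near its 3' end. It encodes a PBX-type TALE factor, known to act with UNC-62 in the intestine and to control yolk protein genes. The gene (WBGene00017690) spans chrX:6522596-6530146 on the minus strand. The peak at chrX:6522753-6523072 had its summit 317 bp before the 3' end, 7233 bp from the single 5' end. The series signal was 88.3, at rank 1777, with 48.8 in replicate 1 and 46.0 in replicate 2, both passing. The series summit fell in the last intron, while the summits of both replicates' strongest overlapping peaks fell in the coding exons on either side. It was the only series summit in a promoter window or body of the 20 homeobox genes on the X chromosome. The 181 bases around it, chrX:6522823-6523003, are shown on the minus strand with coding sequence in capitals.

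ceh-60 peak: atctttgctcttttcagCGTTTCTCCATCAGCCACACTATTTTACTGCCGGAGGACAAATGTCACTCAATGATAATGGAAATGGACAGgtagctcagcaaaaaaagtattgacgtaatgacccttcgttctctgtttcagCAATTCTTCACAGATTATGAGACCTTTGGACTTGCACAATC

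The 2 remaining peaks lie on chromosome I. The strongest peak at any homeobox gene was in the 3' UTR of ceh-8, the retinal homeobox (Rax) gene of the worm, which spans chrI:8245505-8250948 on the minus strand. The peak at chrI:8245556-8245776 had a series signal of 413 and ranked 82 of 3243. Its signal was 148 in replicate 1 and 259 in replicate 2, and it passed in both. The summit lay 177 bp before the 3' end of ceh-8 and 719 bp upstream of the 5' end of col-63, a collagen gene on the same strand, so it also counts for the promoter of col-63. The peak overlaps the noncoding RNA gene ZK265.11 as well. ceh-8 itself had only a weak candidate in its promoter windows, with a signal of 13.7. The other peak, at chrI:6051051-6051370, lay 760 bp upstream of ceh-2, an Emx-type gene known from the pharynx, whose span is chrI:6046788-6050451 on the minus strand. The series signal was 80.7, with 26.5 in replicate 1, which did not pass, and 48.8 in replicate 2, which did. Its summit fell inside the tRNA gene WBGene00022946, a tRNA-Leu gene.

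**Figure D2:**
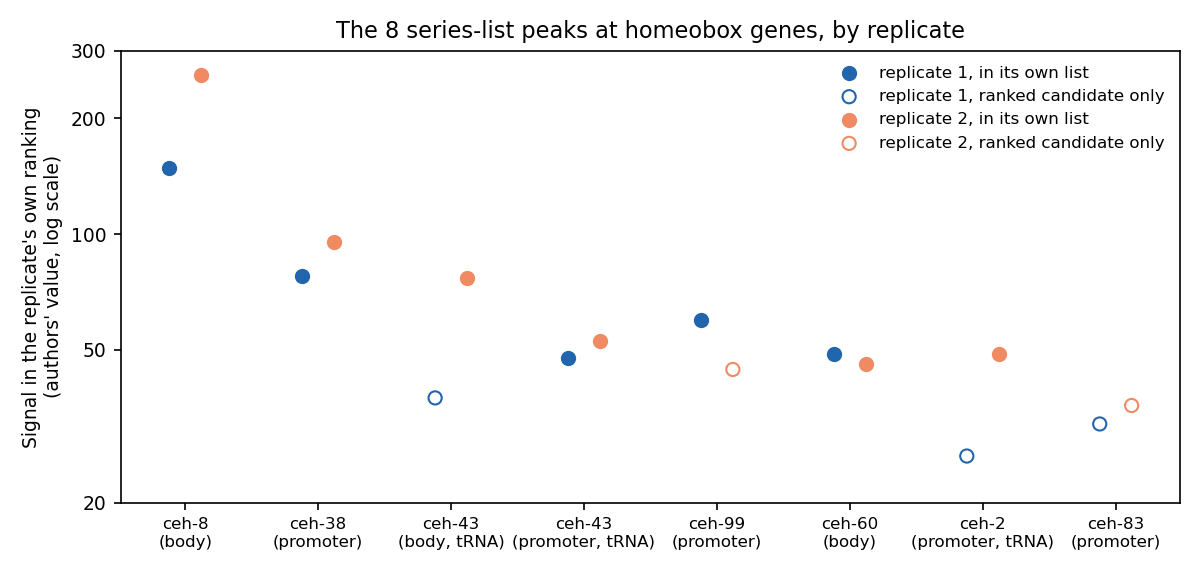
Signal (authors' value, log axis) of the 8 series-list peaks at homeobox genes in the ranking of replicate 1 (blue) and of replicate 2 (orange), ordered by series signal. Filled points passed in the replicate's own thresholded list, and the ceh-83 peak, with signals of 32.1 and 35.8, passed in neither. Blue and orange values come from separate lists, so their heights cannot be compared with each other.

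**Figure D3:**
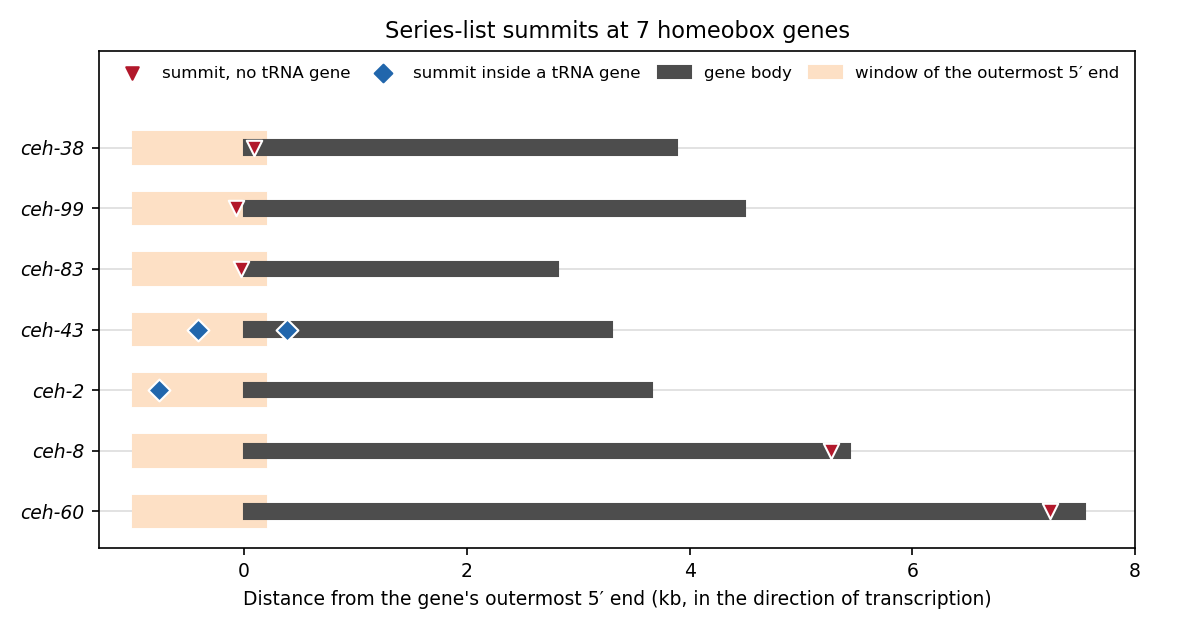
Summits of the series list at 7 homeobox genes, drawn to scale as distance in kb from the outermost 5' end along the direction of transcription. Diamonds mark the 3 summits inside tRNA genes, at ceh-43 and ceh-2, and the ceh-8 and ceh-60 summits sit near the 3' ends.

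Of the 8 peaks, 3 (37.5%) had their summit inside a tRNA gene, against 297 of all 3243 series peaks (9.16%). Without series peaks within 500 bp of a tRNA gene, 3 homeobox genes had a promoter summit (3.75%), namely ceh-38, ceh-83 and ceh-99, and 9.40% of all genes did. In the same setting ceh-8, ceh-38 and ceh-60 had one in the body. ceh-43 and ceh-2 are thus counted through peaks centred on tRNA genes. The part of the tRNA genes in the signal at these homeobox genes was not tested.

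Neither of the searched homeodomain sites occurred around the 8 peaks, though so few windows would hold few at the share of all series peaks. Windows of 300 bp around the summits had a median GC content of 41.8% at the 8 homeobox peaks (39% to 45.3%), against 41.3% over all series peaks. The homeodomain core TAATTA was in 0 of the 8 windows and in 10.4% of all series windows. TGATTGAT, a composite Hox and PBX site, was in 0 of 8 and in 1.45% of all. The E-box CACGTG was in 0 of 8 and in 8.29% of all. GATAA, the core bound by GATA factors, was in 4 of 8 and in 44% of all, and GAGAGA was in 2 of 8 and in 33.9% of all. GTTCGANTC, part of the internal promoter (B box) of tRNA genes, was chosen after the tRNA overlap had been seen. It was in 3 of 8 windows, those of ceh-43 and ceh-2, and in 7.12% of all. All motifs were searched on both strands, and a match is only a description of letters. A window without a match says nothing about the factor. In the printed stretches, GTTCGANTC lies within the capitals of both ceh-43 peaks.

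In the ranked list behind the series list, which also holds weak candidates, the homeobox share was slightly above that of all genes. Candidates were less dense per kb there. That order of shares did not hold in every ranked list. The ranked list from which the series list was drawn holds 89851 candidate peaks, most of them weak. A candidate summit lay in a promoter window of 58 homeobox genes (72.5%), against 66.0% of all genes, and in the body of 60 (75%), against 70.0%. The strongest promoter candidate had a median signal of 32.3 over the 58 homeobox genes, against 32.8 over the 13176 genes that had one. Candidates occurred at 0.910 per kb of promoter window in homeobox genes, against 0.967 per kb over all genes. For gene bodies the density was 0.775 per kb in homeobox genes, against 0.986 over all genes. Summits of the series list occurred at 3.82 per 100 kb of promoter window in homeobox genes, against 7.62 over all genes, and at 1.23 against 2.08 per 100 kb of gene body. Among the 53 homeobox genes with a promoter candidate but no promoter summit in the series list, the signal of the strongest ran between 4.40 and 63.4. Its score, the authors' scaled irreproducible discovery rate (IDR), ran between 36 and 657, and the series list starts at a score of 830.

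**Figure D4:**
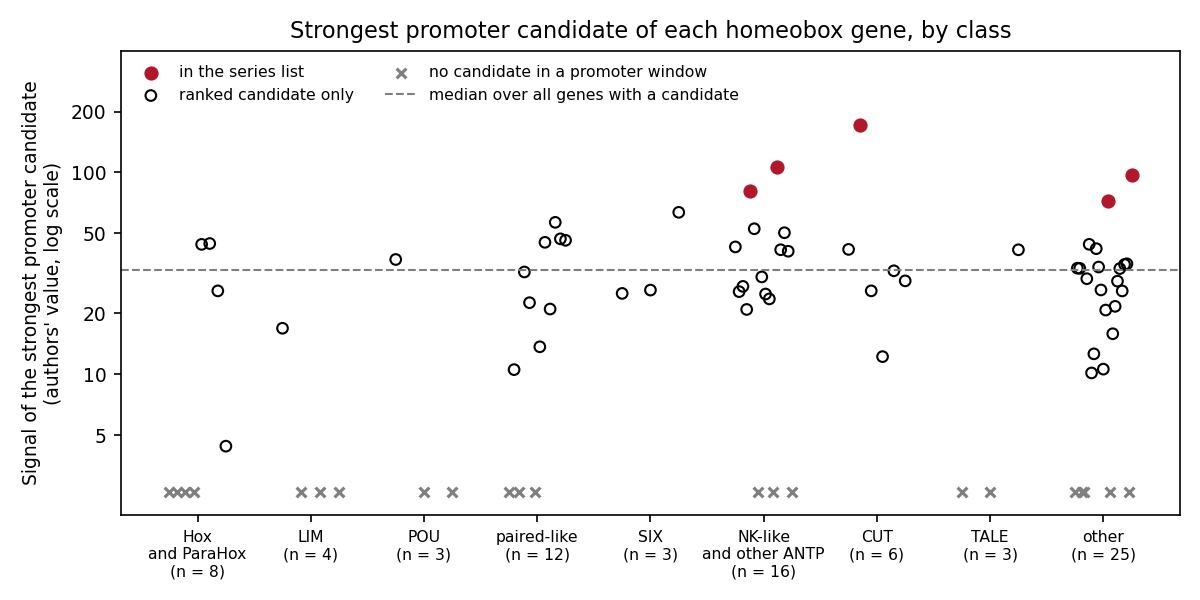
Signal (authors' value, log axis) of the strongest candidate in the promoter windows of each of 80 homeobox genes, from the ranked list that holds the series peaks, by homeobox class. Red points passed into the series list, crosses at the bottom are genes with no promoter candidate there, and the dashed line is the median of 32.8 over all genes with a candidate.

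Hox and ParaHox genes had no peak in any thresholded list, though so small a class would hold few at the genome-wide rate. The even-skipped-type gene vab-7 is counted with them here. Of these 8 genes, 0 had a series summit in a promoter window or body, where 12.6% of all genes had one. The nearest summit lay between 11878 bp (pal-1) and 40291 bp (vab-7) from a 5' end. lin-39, the midbody Hox gene of the vulva and central neurons, and mab-5, the Hox gene of the posterior body and of migrating Q neuroblasts, had no candidate in any of the 4 ranked lists, in window or body. ceh-13, the labial-type anterior Hox gene, had no promoter candidate in the same lists. In its body, the strongest candidate had a signal of 20.4 in replicate 1 and 36.7 in the ranked list that holds the conservative peaks, and replicate 2 had none. egl-5, an Abdominal-B-type gene of the tail, had a body candidate of 22.3 in the ranked list and none in its promoter windows. Between lin-39 and egl-5, a stretch of 288.5 kb on chromosome III that also holds many unrelated genes, there were 8 series summits, or 2.77 per 100 kb, against 4.14 per 100 kb over the chromosome. Candidates in that stretch occurred at 0.759 per kb, against 1.03 per kb over the chromosome. The series peak nearest to mab-5, with a signal of 162, lay 5631 bp from the gene and in no gene's promoter window.

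The posterior pair nob-1 and php-3, Abdominal-B-type genes of the posterior embryo, had candidates but no peak. Their stretch of 10.1 kb held 0 series summits and 16 candidates, or 1.58 per kb, against 1.03 per kb over the chromosome. The strongest promoter candidate of nob-1 had a signal of 44 in the ranked list (score 448), with 24.9 in replicate 1 and 22.5 in replicate 2. That of php-3 had 25.9 (score 36), with 13.6 in replicate 1 and 6.99 in replicate 2. pal-1, the caudal-type gene of posterior blastomeres, had 44.4 (score 296), with 24.7 in replicate 1 and 23.9 in replicate 2. vab-7, the even-skipped-type gene of posterior cells, had 4.40 in its promoter windows and 45.6 in its body. All of these lay well under the score of 830.

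The LIM, POU and SIX-class genes had 0 series summits in window or body among 4, 3 and 3 genes. With 12.6% of all genes holding one, counts of 0 in such small classes are near the genome-wide share. In the ranked list behind the series list, 66.0% of all genes had a promoter candidate. Counts of candidates in classes of 3 or 4 genes cannot show a difference from that share. Of 4 LIM genes (lin-11, mec-3, ttx-3 and ceh-14), which fix the fates of single neuron types and vulval cells, 0 had a series summit, and ceh-14 alone had a promoter candidate in the ranked list behind the series list (16.9). Of 3 POU genes, unc-86, ceh-6 and ceh-18, 0 had a series summit, and ceh-18 alone had a promoter candidate in the ranked list behind the series list (37). In the replicates' own rankings ceh-18 had 19.996 in replicate 1 and none in replicate 2. unc-86, an identity gene of touch and other sensory neurons, had 13.95 in replicate 1 and 26.9 in replicate 2. All 3 SIX-class genes had one, and that of ceh-34, which acts in the pharyngeal nervous system, was the strongest of any homeobox gene outside the series list. Its signal was 63.4 with a score of 657, 8 bp upstream of its 5' end, with 22.6 in replicate 1 and 31.9 in replicate 2. Its neighbour ceh-33 had 26.1 (score 118).

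Among the 12 paired-like genes, ceh-8 was the only one with a series summit. unc-4, which sets the synaptic inputs of motor neurons, had a promoter candidate of 56.5 (score 416), with 22.3 in replicate 1 and 30.9 in replicate 2. unc-42, an identity gene of several interneurons and motor neurons, had 46.8 (score 308), with 28.1 in replicate 1 and 31.1 in replicate 2. vab-3, the Pax6 gene of the worm head, had 46.1 (score 170), with 26.1 in replicate 1 and 20.5 in replicate 2. ceh-36, an Otx-type gene of chemosensory neurons, had no candidate in any ranked list.

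Of 16 NK-like and other ANTP genes, 2 had a promoter summit, ceh-43 and ceh-2, a share near the 9.87% of all genes. ceh-22, the Nkx2-type gene of pharyngeal muscle, had a candidate of 52.5 (score 241), with 27.8 in replicate 1 and 28.9 in replicate 2. ceh-51, an early mesoderm gene, had 50.2 (score 346), with 16.7 in replicate 1 and 30.3 in replicate 2. ceh-24, a gene of pharyngeal and vulval muscle, had no candidate in any ranked list. Of 6 CUT genes, ceh-38 had a promoter summit, as did 9.87% of all genes. All 6 had a promoter candidate, as did 66.0% of all genes, and those other than ceh-38 had signals between 12.2 and 41.5. Of 3 TALE genes, ceh-60 had its 3' peak and a promoter candidate of 41.3 (score 394), while ceh-40, a second PBX-type gene, had no candidate in any ranked list. The remaining 25 genes, which were given no class here, include the bound genes ceh-99 and ceh-83 and the candidate-free genes ceh-84, ceh-93 and ceh-100. In all, 8 of the 80 homeobox genes had no candidate in window or body in any of the 4 ranked lists, against 14.8% of all genes.

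Homeobox genes were longer in the median and stood farther from the next gene upstream. Their median length was 3277 bp, against 2027 bp over all genes, and the median gap to the next protein-coding gene upstream was 2594 bp, against 936 bp. A promoter window of 1000 bp thus covers a smaller part of their upstream sequence. With a window reaching 2000 bp upstream, 6 homeobox genes were bound (7.5%), against 12.9% of all genes, and the gene added was ceh-5. X holds 20 of the 80, against 13.7% of all genes. On X, 0 of the 20 had a promoter summit, against 6.37% of all genes on X. On chromosome II, 3 of 15 homeobox genes had one, against 8.99% of all genes there. On chromosome III it was 1 of 16 (6.25%), against 14.3%, and on chromosome I 1 of 9 (11.1%), against 14.5%. Chromosomes IV and V hold 6 and 14 homeobox genes, 0 of them bound, against 10.4% and 7.05% of all genes.

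The nearest series summit lay a median of 17090 bp from a homeobox 5' end, against 13867 bp over all genes. Within 2 kb there was a summit for 7 homeobox genes (8.75%), against 15.8% of all genes. Within 5 kb it was 15 (18.8%) against 27.4%, and within 10 kb 22 (27.5%) against 41.6%. Farther out the order turned, with 49 homeobox genes (61.2%) against 60.9% within 20 kb, and 72 of the 80 against 86.7% within 50 kb. The upper quartile of the distance was 28530 bp in homeobox genes, against 31681 bp over all genes. Genes with a summit between 1 and 5 kb away but no promoter summit were ceh-8, ceh-5, ceh-48, ceh-12, ceh-19, ceh-39, ceh-60, ceh-17, ceh-82 and ceh-89, at 1285 to 4970 bp. For ceh-82 this was the summit of the ceh-83 peak. The gene farthest from a summit was ceh-84, at 264261 bp. Within 200 bp it was 3 homeobox genes (3.75%), against 4.28% of all genes. Genes and their neighbours are not independent, and these counts describe 1 set of peaks.

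**Figure D5:**
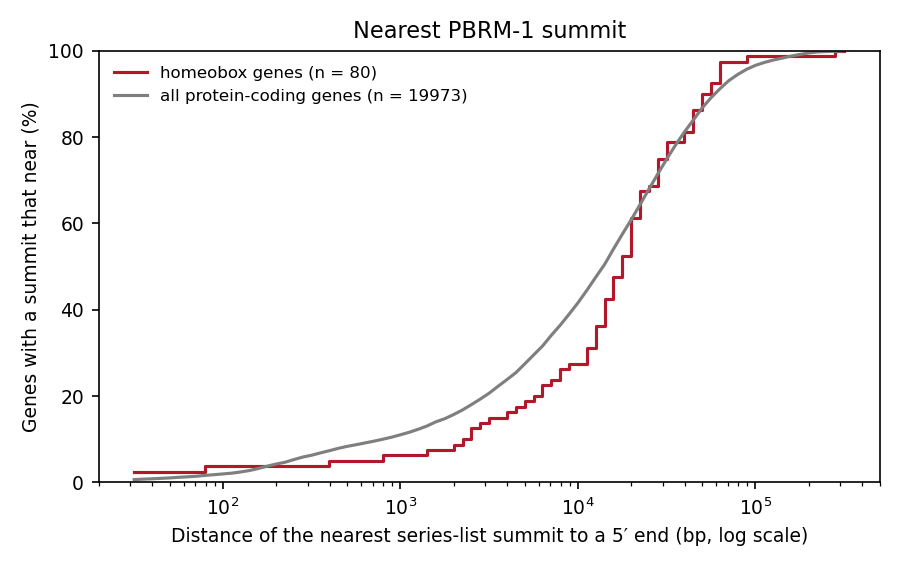
Percent of genes whose nearest series-list summit lies within the distance on the x axis (bp, log axis) of any of their 5' ends, for 80 homeobox genes (red) and 19973 protein-coding genes (grey). The red line runs below the grey one between 1 and 10 kb, with 27.5% against 41.6% at 10 kb, and meets it near 20 kb, with 61.2% against 60.9%.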

How the data were processed

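Peak lists on ce11 were used as the authors deposited them, 8 files without header lines. No aligner or peak caller is named in the labels or headers. For each peak the authors deposited a signal value, a score (a scaled IDR that reaches 1000, at least 830 in each thresholded list), and −log10 of the caller's q value. In the series-level ranked lists, 4 signal columns that do not name their replicate were not used. Replicate values are those of the strongest peak in the replicate's own ranked list that overlaps the series peak by at least 1 bp, or whose summit lies in the window. For genes without a series peak, a replicate value can therefore come from another site in the gene's windows.

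Genes came from Ensembl release 115 (WBcel235, the assembly of ce11) and sequence from the RefSeq copy of that assembly, in which 0 peaks reached past a chromosome end. Summits are the peak start plus the summit offset, counted from 1. Taking the peak midpoint in place of the summit gave the same counts of genes. Summits of the same site differed between the replicates, so summit positions are approximate. Every annotated transcript of a gene gave a window, noncoding transcripts included. A gene counted as bound when a summit lay in any of its windows, and a summit could count for several genes. Scripts used Python 3.11.15, pandas 2.3.3 and numpy 2.4.6, and the window assignment was checked on planted summits. No statistical test was run. Counts of homeobox genes are given beside those over all genes. The rule for the members reads only gene symbols, but this family, its classes and the lists were proposed with earlier results of these data known. Named are all genes with a series summit, the Hox and ParaHox genes, the 6 strongest promoter candidates outside the series list and up to 3 genes per class without any candidate. Others are named only to complete a count or class and were chosen after their values were seen.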

Additional observations from a re-analysis of the deposited data

How the results depend on the processing

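The homeobox genes with a promoter summit numbered 5. They were 3 with either replicate left out (lowest and highest 3), 3 when the weaker part of the series peaks (under the median signal) was dropped and 3 without peaks near tRNA genes. The other 8 alternatives gave 4 to 6. The count in gene bodies was 4, and 3 to 6 under all alternatives, with 3 and 4 when a replicate was left out. Over all genes, 1971 had a promoter summit, with 925 to 1524 when a replicate was left out and 1201 at or above the median signal. In gene bodies 1054 had one, with 404 to 628 when a replicate was left out, 459 at or above the median signal and 1687 with any overlap of peak and gene. The cause of these shifts was not tested. In every alternative for promoter windows, the homeobox share lay below that of all genes. In gene bodies it lay above in the conservative list (5.00% against 4.87%), in each replicate, with the median filter (3.75% against 2.30%) and with the q filter (5.00% against 3.88%), and below in the others. No paired analysis was possible because there is only 1 group. Unknown read depth limits what a gene without a peak can show, and with 80 genes a change of 1 or 2 genes moves any share.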

Other observations

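Of 20 homeobox genes outside the name rule, 1 had a series summit in a promoter window (5.00%, against 9.87% of all genes) and 2 had one in the body, where 5.28% of all genes had one. These genes were named after their values were seen. The promoter summit was at unc-62, the Meis-type partner of CEH-60, in a peak at chrV:4504573-4504892 with a signal of 74.6. zag-1, a zinc-finger homeobox gene of neurons, had a body summit with a signal of 41.4. Other developmental transcription factor families were bound as follows. Of 25 hlh genes 2 had a promoter summit, hlh-11 (113) and hlh-30 (71.1). hlh-30 had 2 further summits in its body (132 and 78.5), the only hlh gene with one there. Of 9 fkh genes 1 had a promoter summit, fkh-7 (84.1), with further body summits of 90.7 and 70.1. In gene bodies 2 of the 9 fkh genes had one (22.2%, against 5.28% of all genes), fkh-7 and fkh-9 (53.2). Of 269 nhr genes 12 had a promoter summit (4.46%, against 9.87% of all genes), and 9 had a body summit (3.35%, against 5.28%). Of 19 tbx, 6 elt and 3 sox genes 0 had either, against 12.6% of all genes. None of the peaks named here lay within 500 bp of a tRNA gene. No difference between these families was tested.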
